A study of Rattus norvegicus with 24 samples.

Results

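The genes described here belong to families of glutamate receptors at excitatory synapses and of proteins that hold and regulate them beneath the postsynaptic membrane. They were chosen by name: genes of the AMPA (Gria), NMDA (Grin), kainate (Grik), delta (Grid) and metabotropic (Grm) receptor families, the Cacng family of AMPA receptor auxiliary and calcium channel subunits, the Dlg, Dlgap, Shank and Homer scaffolds, and the Camk2 kinases and their inhibitors. The array measured 55 of them with 85 probe sets, of 10411 genes that a probe set named singly. For each gene the probe set with the highest mean stood for the gene. A gene was tested where it lay above 3.84 log2, the 40th percentile of all values, on at least 6 arrays; 31 of the 55 passed, of 7006 genes in all.

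The tissue was dorsal horn of the spinal cord from the operated side of Sprague-Dawley rats 7 days after surgery under isoflurane. In spared nerve injury (SNI), a surgeon ties off and cuts the tibial nerve and the common peroneal nerve and spares the sural nerve; in sham animals the sciatic nerve was only exposed. The 4 groups of 6 arrays were adult sham, adult SNI, neonate sham and neonate SNI. Adults were 8 to 12 weeks old, and neonates were labelled P10, without saying whether that was the age at surgery or at collection. The labels name no transgene and no drug other than the isoflurane, and pups stayed with their mothers. The arrays of a group are described as biologically independent, but not whether a dorsal horn came from 1 animal or a pool. Values are log2 expression, so a difference of 1 is a doubling.

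Glutamate released by primary sensory fibres and spinal interneurons opens AMPA, kainate and NMDA receptor channels, while metabotropic receptors signal through G proteins. In the postsynaptic density, Dlg proteins bind receptor tails, Dlgap proteins link them to Shank, and Shank binds Homer, which reaches to metabotropic receptors. CaMKII, activated by calcium, phosphorylates AMPA receptors and their auxiliary subunits. In the dorsal horn this machinery carries nociceptive input and is known for the synaptic strengthening of central sensitisation, and receptor subunits are exchanged as synapses mature after birth.

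Array medians lay between 5.57 and 5.67 log2, and no 2 arrays held identical values. The dissected tissue carried the markers of dorsal horn: 16 of 17 measured dorsal horn neuron genes were above the filter level, all but Pdyn. All 16 measured pan-neuronal markers passed the filter too. Motor neuron markers, which belong to the ventral horn, varied strongly between arrays of every group. The mean of the 4 tested ones (Chat, Slc18a3, Slc5a7, Prph) ran from 4.84 to 8.92 log2 in adult sham, 5.23 to 8.17 in adult SNI, 4.81 to 7.30 in neonate sham and 4.55 to 7.36 in neonate SNI. Chat was above the filter level on 10 arrays and Isl1 on none. In whole tissue, fewer cells of a type and less RNA per cell cannot be told apart.

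Which receptor genes were measurable differed by family. Above the filter level were 3 of 4 AMPA receptor genes (Gria1, Gria2, Gria3), 5 of 7 NMDA receptor genes (Grin1, Grin2a, Grin2c, Grin2d, Grin3a), 2 of 5 kainate receptor genes (Grik4, Grik5) and 4 of 7 metabotropic receptor genes (Grm3, Grm4, Grm7, Grm8). Of the Cacng genes 2 of 8 passed (Cacng2, also called stargazin, and Cacng3). Genes named Dlg, Dlgap, Shank or Homer, counted as scaffolds by name, passed in 10 of 17 cases. Camk2 genes, kinases and inhibitors together, passed in 5 of 6. The only delta receptor gene measured, Grid1, did not pass. Among the 31 genes, 29 lay above the level on all 24 arrays, and Cacng3 and Dlgap3 on 23.

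**Figure D1:**
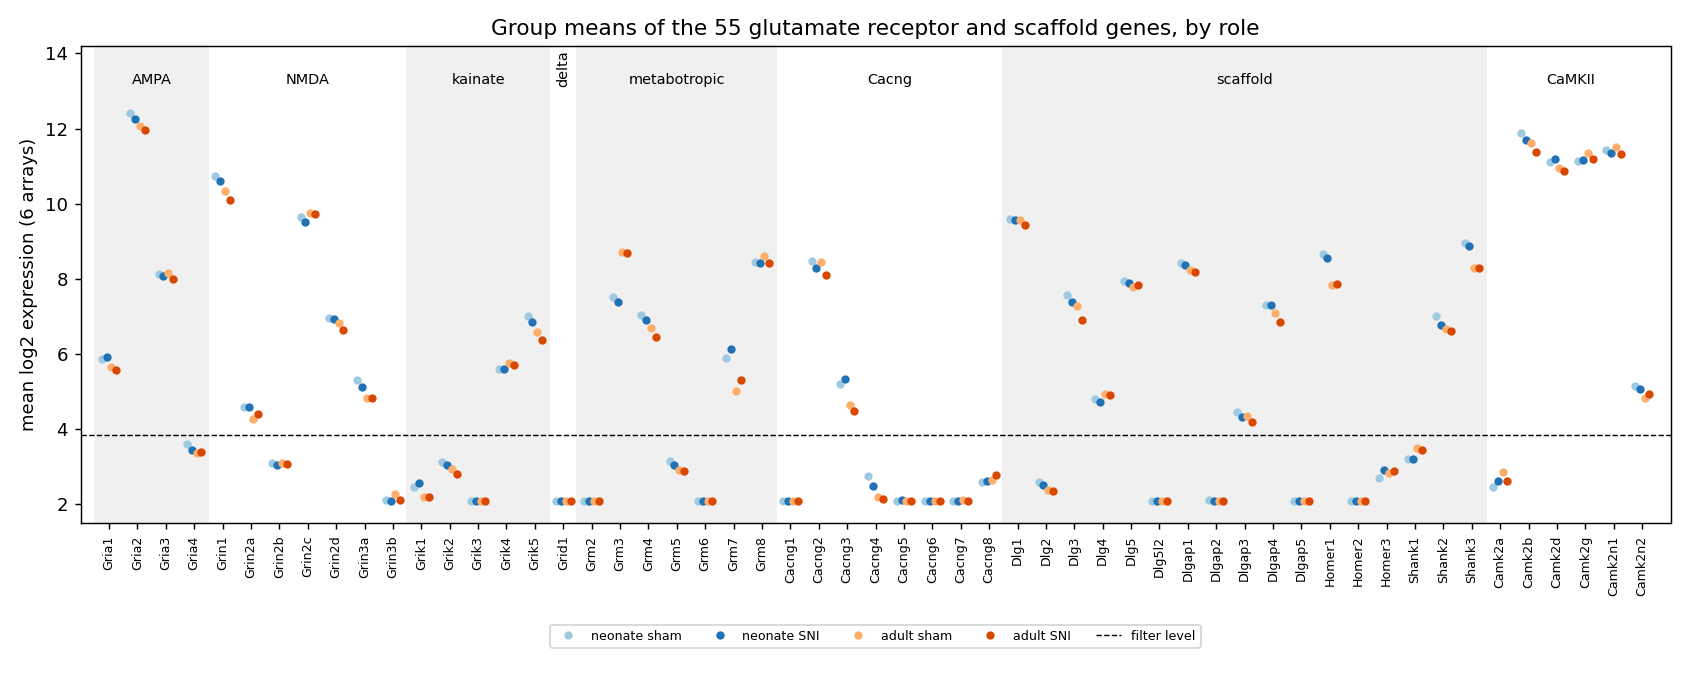
Mean log2 expression of the 55 genes (vertical axis) in each of the 4 groups (coloured points, 6 arrays each), ordered by role along the horizontal axis; the dashed line is the filter level of 3.84 log2. The 24 genes not tested lie below the line in every group, with group means from 2.09 to 3.61; points of different genes come from different probe sets and their heights are not comparable.

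The 24 genes below the filter include several with well-known roles in pain and plasticity, and for them these arrays give no measurable difference between groups. Grin2b, an NMDA receptor subunit prominent in young neurons, had a lowest, median and highest value of 3.01, 3.03 and 3.44 log2 in adult sham and 2.88, 3.08 and 3.40 in neonate sham. In adult SNI it read 3.03, 3.03 and 3.16, and in neonate SNI 3.01, 3.03 and 3.07. All 4 groups overlapped near 1 low value.

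Grm5, a metabotropic receptor gene that couples to calcium release, read 2.47, 2.99 and 2.99 log2 in adult sham, 2.33, 2.99 and 3.01 in adult SNI, 2.98, 3.04 and 3.59 in neonate sham and 2.98, 3.01 and 3.32 in neonate SNI. Camk2a, a main kinase subunit of mature forebrain synapses, read 2.47, 2.79 and 3.42 in adult sham, 2.54, 2.54 and 2.96 in adult SNI, 2.14, 2.54 and 2.78 in neonate sham and 2.14, 2.45 and 3.47 in neonate SNI. Both stayed under the filter level on every array. Gria4, the remaining AMPA receptor gene, exceeded it on 3 arrays, Shank1 on 2 and Cacng4 on 1, while the other 21 untested genes exceeded it on none, and the values of 7 genes spanned less than 0.01 log2 over all arrays. A value this low does not show that a transcript is absent, since a probe set may bind its target poorly.

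The first comparison asked whether these transcripts differed 7 days after nerve injury. In adults none of the 31 genes passed the test (limma, Benjamini-Hochberg adjusted over all probe sets), against 1.98% of all genes tested that were higher and 0.0285% that were lower after SNI. In neonates none passed either, against 0.357% higher and 0% lower. The smallest adjusted p of the 31 was 0.348 in adults and 1 in neonates. Without adjustment, 3 of the 31 had p under 0.05 in adults and 1 in neonates, against 7.75% and 2.63% of all genes. This fit held no replicate block. With the replicate number as a block within age still none passed, with a smallest limma adjusted p of 0.131 in adults and 0.815 in neonates. There 6 of the 31 had an unadjusted p under 0.05 in adults and 3 in neonates, 1 of them higher at each age. The share of all genes at that p was not counted for the blocked fit. The injury itself registered in the same tissue: all 12 tested microglia and macrophage markers rose in adults (median difference 1.80) and 10 of 12 in neonates (median 1.06). Whether their rise has a part in the values of receptor genes was not tested.

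The injury differences of the 31 genes were small and mostly below 0. In adults 25 of 31 were below 0, with a median of -0.11 log2 against -0.03 over all genes, and in neonates also 25 of 31, with a median of -0.09 against -0.01. Signs matched between the ages in 23 of the 31 genes (74.2%), against 60.8% of all genes. The adult and the neonate comparison share no arrays, but same-numbered arrays of different ages deviated together (mean correlation 0.321). The pan-neuronal list leaned the same way after injury, with median differences of -0.09 in adults and -0.04 in neonates. Relative to that list's mean on each array, 18 of the 31 were below 0 in adults and 20 in neonates.

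The AMPA receptor genes illustrate the size of these differences. Gria2, whose subunit makes the channel impermeable to calcium, had a lowest, median and highest value of 11.74, 12.11 and 12.24 log2 in adult sham and 11.38, 12.04 and 12.37 in adult SNI. In neonates it read 12.25, 12.43 and 12.72 in sham and 11.99, 12.23 and 12.54 in SNI. Sham and SNI overlapped at both ages, and the differences were -0.11 (SE 0.128, limma adjusted p = 0.944) in adults and -0.16 (SE 0.128, adjusted p = 1) in neonates.

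Gria1, a subunit known for its delivery to potentiated synapses, ran from 5.48 through a median of 5.66 to 5.88 in adult sham and from 4.95 through 5.62 to 6.23 in adult SNI. In neonates it ran from 5.39 through 5.69 to 6.49 in sham and from 5.37 through 5.75 to 6.65 in SNI. All groups overlapped. The adult injury difference was -0.09 and the neonate one 0.05 (SE 0.22 each). For Gria3 they were -0.16 and -0.06 (SE 0.157 each).

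NMDA receptor genes gave the same picture. Grin1, the subunit that every NMDA receptor contains, read 9.92, 10.24 and 10.71 log2 in adult sham, 9.68, 10.14 and 10.48 in adult SNI, 10.48, 10.75 and 11.01 in neonate sham and 10.09, 10.60 and 11.05 in neonate SNI. Sham and SNI overlapped at each age, with differences of -0.24 (SE 0.173, limma adjusted p = 0.867) in adults and -0.14 (adjusted p = 1) in neonates. Grin2a, a subunit of mature synapses, read 4.01, 4.38 and 4.45 in adult sham and 4.11, 4.38 and 4.62 in adult SNI, a difference of 0.12 (adjusted p = 0.951). In neonates it read 4.21, 4.49 and 5.25 in sham and 4.20, 4.49 and 5.11 in SNI. The medians of sham and SNI were nearly equal at both ages. Several Grin2a arrays sat at nearly the same value, close to 4.38, where differences can be understated.

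Among scaffold genes, Dlg4 encodes PSD-95, the best-known protein of the postsynaptic density. It read 4.73, 4.81 and 5.45 log2 in adult sham, 4.56, 4.89 and 5.53 in adult SNI, 4.38, 4.80 and 5.18 in neonate sham and 4.54, 4.75 and 4.79 in neonate SNI. All 4 groups overlapped, and the 95% interval of the adult injury difference ran from -0.34 to 0.31.

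In the fit without a replicate block, the 3 genes with an unadjusted p under 0.05 in adults were all lower after SNI. None passed adjustment, and they are named because of that p. Dlg3, a scaffold of the PSD-95 family, read 7.11, 7.29 and 7.40 log2 in adult sham and 6.46, 6.87 and 7.23 in adult SNI, with overlapping groups and a difference of -0.36 (SE 0.138, limma adjusted p = 0.348). Dlgap4, which links Dlg proteins to Shank, read 7.02, 7.09 and 7.15 in sham and 6.79, 6.84 and 6.99 in SNI, a difference of -0.23 (SE 0.106, adjusted p = 0.613). Its sham and SNI arrays did not overlap, as for 0.0856% of all genes in that direction, but the difference was small.

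Camk2b, the CaMKII subunit that binds actin, read 11.38, 11.68 and 11.71 log2 in adult sham and 11.17, 11.46 and 11.53 in adult SNI. The difference was -0.24 (SE 0.0906, limma adjusted p = 0.35). In neonates it read 11.82, 11.86 and 11.96 in sham and 11.41, 11.79 and 11.85 in SNI, a difference of -0.19 (SE 0.0906, adjusted p = 1). In the fit without a replicate block it was the 1 gene with an unadjusted p under 0.05 at both ages, and groups overlapped at both.

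**Figure D2:**
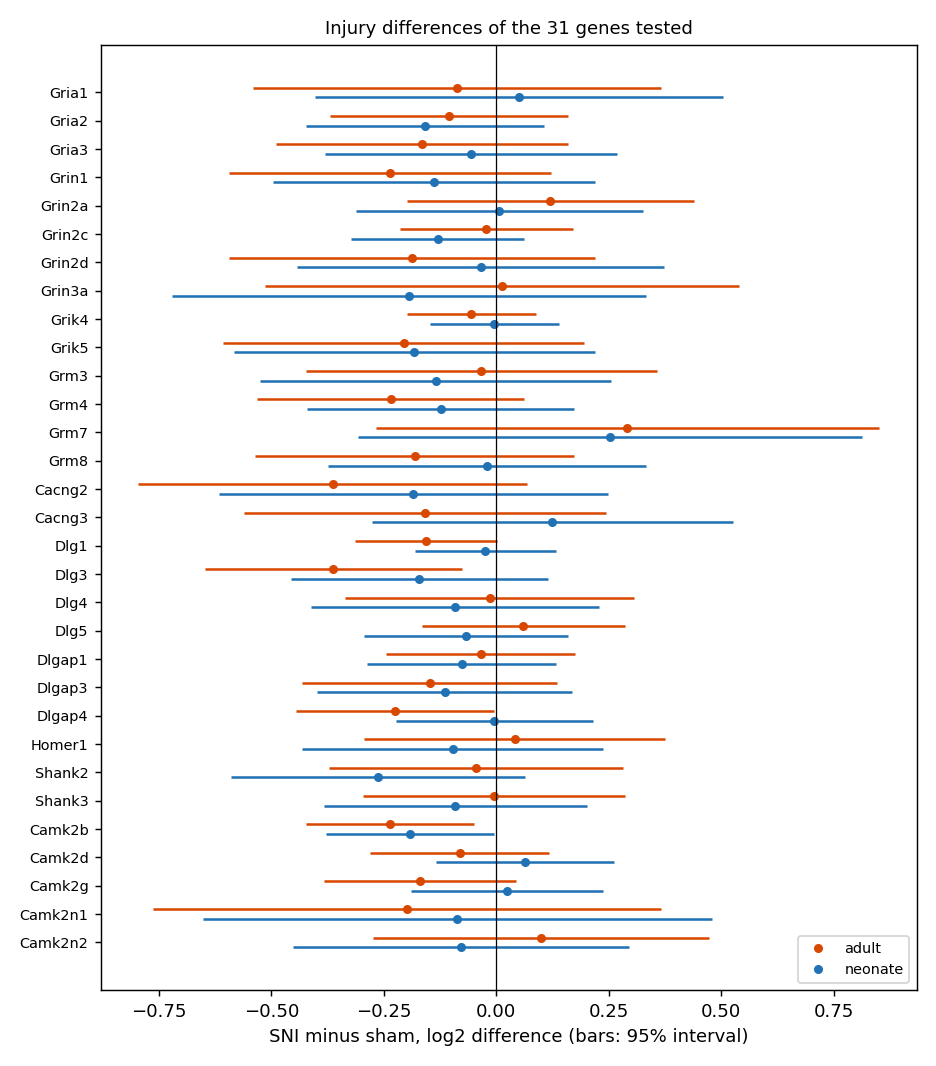
Injury difference (SNI minus sham, log2, horizontal axis) of each of the 31 tested genes in adults and neonates; points are estimates from 6 against 6 arrays and bars their 95% intervals. No gene passed the test at either age, and every interval lies between -1 and 1.

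The intervals show how precisely each injury difference was measured, for 1 gene at a time and in the fit without a replicate block. They apply to the deposited values, in which differences can be understated where arrays share 1 low value. In adults all 31 intervals of 95% lay within 1 log2 unit of 0, and 19 lay within 0.5. In neonates the counts were 31 and 22. The outermost adult bounds were -0.80 for Cacng2, an AMPA receptor auxiliary subunit (difference -0.36, limma adjusted p = 0.746), and 0.85 for Grm7, a presynaptic metabotropic receptor gene (difference 0.29, adjusted p = 0.917). In neonates they were -0.72 for Grin3a, an NMDA receptor subunit, and 0.81 for Grm7. The half-width of the interval was 0.144 at the narrowest, 0.321 at the median and 0.565 at the widest, so the size of change that each gene's arrays could show differed between genes.

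The next comparison asked whether the injury effect differed between ages, as the difference of the adult and the neonate effect. None of the 31 genes passed (smallest limma adjusted p 0.9998), against 0.257% of all genes with a larger adult effect and 0% with a smaller one. None had an unadjusted p under 0.05 either. The differences of effects ran from -0.28 to 0.22, with a median of -0.05 against -0.02 over all genes. Their intervals were wider, and 11 of 31 lay within 0.5 log2 units of 0, so differences between the ages of that size were not excluded for the other genes.

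The age comparisons asked how adult and neonatal dorsal horn differed, in sham and in injured animals. In sham animals 1 gene was higher in adults, Grm3, and 4 were lower, Homer1, Shank3, Grm7 and Cacng3. That is 3.23% higher and 12.9% lower of the 31, against 7.86% and 8.59% of all genes. In either direction 5 of the 31 passed in sham (16.1%), near the 16.5% of all genes. After SNI the same 5 genes passed in the same directions, and Camk2b, Camk2d, Dlg3, Dlgap4, Grin1 and Grm4 were also lower in adults. Here 32.3% of the 31 were lower against 11.9% of all genes, and 3.23% higher against 9.66%. With the replicate number as a block shared by both ages, an alternative added after the data were seen, 9 genes passed in sham: the 5 above, and Camk2b, Gria2, Grik5 and Grin1 as lower. That fit also called more of all genes, 11.7% higher and 13.9% lower. The sham and the SNI comparison share no arrays. They are not independent, since same-numbered sham and SNI arrays of an age deviated together (mean correlation 0.414) and 1 estimate of the spread served both.

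**Figure D3:**
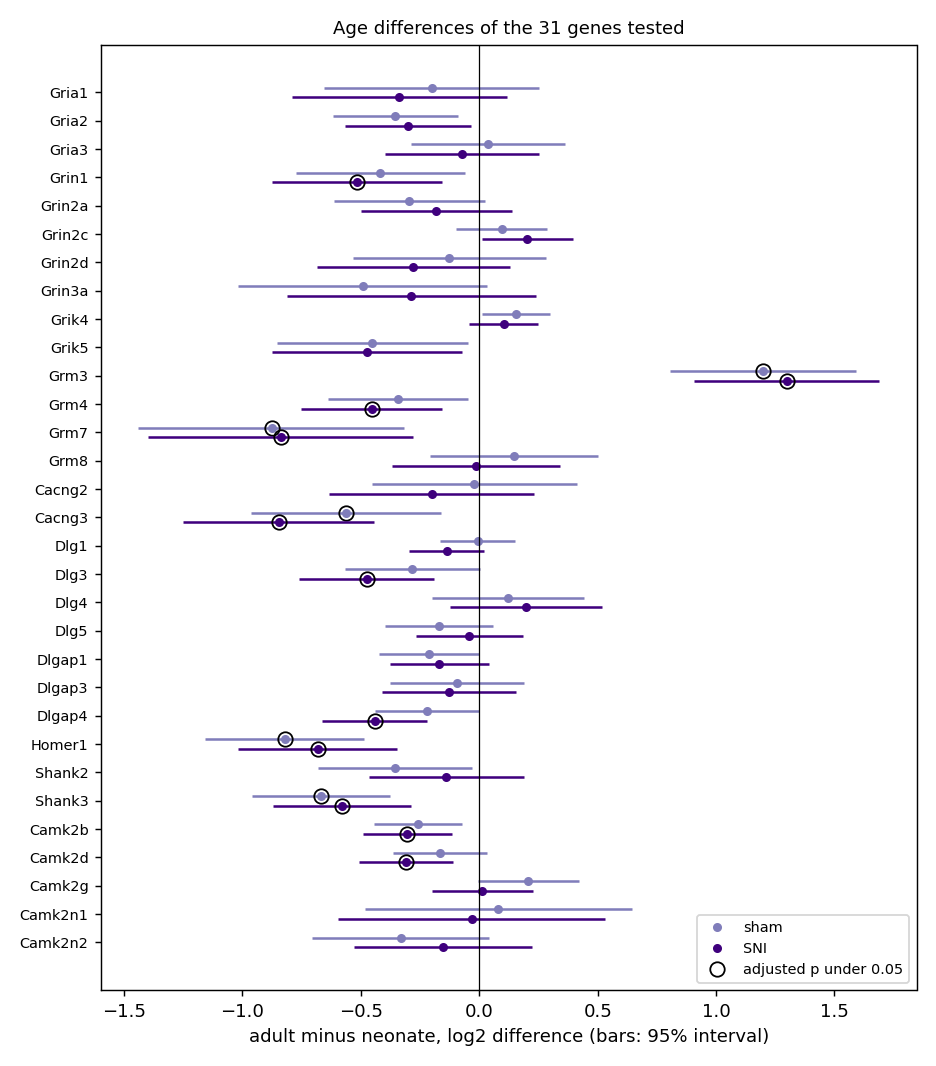
Age difference (adult minus neonate, log2, horizontal axis) of each of the 31 tested genes in sham and in SNI animals, with 95% intervals from 6 against 6 arrays; circled points passed the test. Grm3 stands to the right in both comparisons, at 1.20 and 1.30, and the other circled genes lie to the left.

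Most age differences lay below 0. In sham the median of the 31 was -0.21 log2 against -0.03 over all genes, and 23 of 31 were below 0. After SNI the median was -0.20 against -0.05, and 26 of 31 were below 0. Signs matched between the sham and the SNI comparison in 28 of the 31 genes (90.3%), against 81.8% of all genes. The pan-neuronal markers did not show this shift: their median age differences were 0.01 in sham and -0.02 after SNI. Dorsal horn neuron markers did, with medians of -0.28 in both, and 2 of 16 passed as lower in sham and 3 of 16 after SNI. Markers of some other cell types shifted more with age than the dorsal horn neuron list. Oligodendrocyte markers (-0.19 in sham and -0.12 after SNI) and endothelial markers (-0.28 and -0.27) did not. Immature neuron genes had medians of -0.43 in sham and -0.48 after SNI, with 3 of 5 lower in each, fibroblast genes -0.52 and -0.9975 (2 of 6 lower in each), microglia and macrophage genes 0.57 and 1.52 (7 and 11 of 12 higher), and red blood cell genes 2.20 and 1.87 (3 and 2 of 3 higher). Their part in the age differences of the receptor and scaffold genes was not tested. Relative to the pan-neuronal mean of each array, Grm3, Homer1 and Shank3 passed in sham (3 genes), and those with Cacng3 and Dlgap4 after SNI (5 genes). Whether the dorsal horn neuron list and the receptor genes share a source of the shift was not tested.

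Metabotropic receptor genes moved in opposite directions with age. Grm3 encodes a Gi-coupled receptor found on astrocytes and on nerve terminals. It read 8.35, 8.77 and 9.08 log2 in adult sham and 6.96, 7.65 and 7.85 in neonate sham. After SNI it read 8.05, 8.83 and 8.89 in adults and 6.97, 7.22 and 7.90 in neonates. Every adult array was above every neonate array of the same treatment, as for 4.54% of all genes in that direction in sham and 4.78% after SNI. Grm3 was 2.29-fold higher in adult sham (difference 1.20, SE 0.189, limma adjusted p = 6.718e-05) and 2.46-fold higher in adult SNI (1.30, SE 0.189, adjusted p = 1.818e-05).

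Astrocyte markers were somewhat higher in adults as well. The median age difference of the 9 tested astrocyte genes was 0.23 in sham and 0.28 after SNI, smaller than that of Grm3, and 2 of 9 were higher and 1 lower in sham. The log2 of their summed level ranged from 15.91 to 16.17 in adult sham, 15.56 to 15.91 in neonate sham, 15.97 to 16.27 in adult SNI and 15.66 to 15.90 in neonate SNI. Their part in the Grm3 difference was not tested.

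Grm7 encodes a receptor of the presynaptic active zone that dampens transmitter release, and it was lower in adults. It read 4.57, 5.02 and 5.33 log2 in adult sham and 5.03, 5.90 and 6.62 in neonate sham, and 4.65, 5.33 and 5.74 in adult SNI and 5.35, 6.09 and 6.94 in neonate SNI. The ages overlapped under both treatments. Adult levels were 1.84-fold lower in sham (-0.88, SE 0.271, limma adjusted p = 0.0276) and 1.79-fold lower after SNI (-0.84, SE 0.271, adjusted p = 0.0297). Leaving out any 1 of 5 arrays ended the sham call (adjusted p up to 0.0824 across all alternatives): adult sham 1 or 4, or neonate sham 2, 5 or 6. The call after SNI was lost without adult SNI 1, 3 or 4 or neonate SNI 2, 5 or 6, with adjusted p up to 0.0847.

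Grm4, a related presynaptic receptor gene, read 5.97, 6.83 and 6.84 log2 in adult sham and 6.86, 6.98 and 7.27 in neonate sham, where the ages did not overlap but the test was not passed (-0.34, SE 0.144, limma adjusted p = 0.109). After SNI it read 6.10, 6.43 and 6.89 in adults and 6.82, 6.83 and 7.12 in neonates and was lower in adults (-0.45, SE 0.144, adjusted p = 0.0258), with the 2 ranges overlapping. Most adult sham and neonate SNI arrays sat at nearly the same value, close to 6.83. The call was lost with the replicate number as a block (adjusted p = 0.0521) and without adult SNI 1, 4 or 5 or neonate SNI 2 or 6. Grm8 did not differ beyond its spread (0.15 in sham and -0.01 after SNI, SE 0.172 each).

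The scaffold genes Homer1 and Shank3, whose products bind each other, were both lower in adults. Homer1 read 7.34, 7.92 and 8.28 log2 in adult sham and 8.22, 8.67 and 9.004 in neonate sham, with a narrow overlap. After SNI it read 7.59, 7.77 and 8.23 in adults and 8.40, 8.49 and 8.95 in neonates, with none. Adult levels were 1.77-fold lower in sham (-0.82, SE 0.162, limma adjusted p = 0.000837) and 1.6-fold lower after SNI (-0.68, SE 0.162, adjusted p = 0.00359). A second Homer1 probe set was also lower in both comparisons.

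Shank3 read 7.83, 8.36 and 8.70 log2 in adult sham and 8.78, 8.94 and 9.16 in neonate sham. After SNI it read 7.99, 8.34 and 8.43 in adults and 8.46, 8.96 and 9.25 in neonates. The ages did not overlap under either treatment, as for 4.11% of all genes in that direction in sham and 4.32% after SNI; of the 31 genes 5 did so in sham (Cacng3, Camk2b, Gria2, Grm4, Shank3) and 3 after SNI (Camk2d, Homer1, Shank3). Adult levels were 1.59-fold lower in sham (-0.67, SE 0.141, limma adjusted p = 0.00164) and 1.5-fold lower after SNI (-0.58, adjusted p = 0.0043). Homer1, Shank3 and Grm3 passed in both comparisons under every alternative tried.

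**Figure D4:**
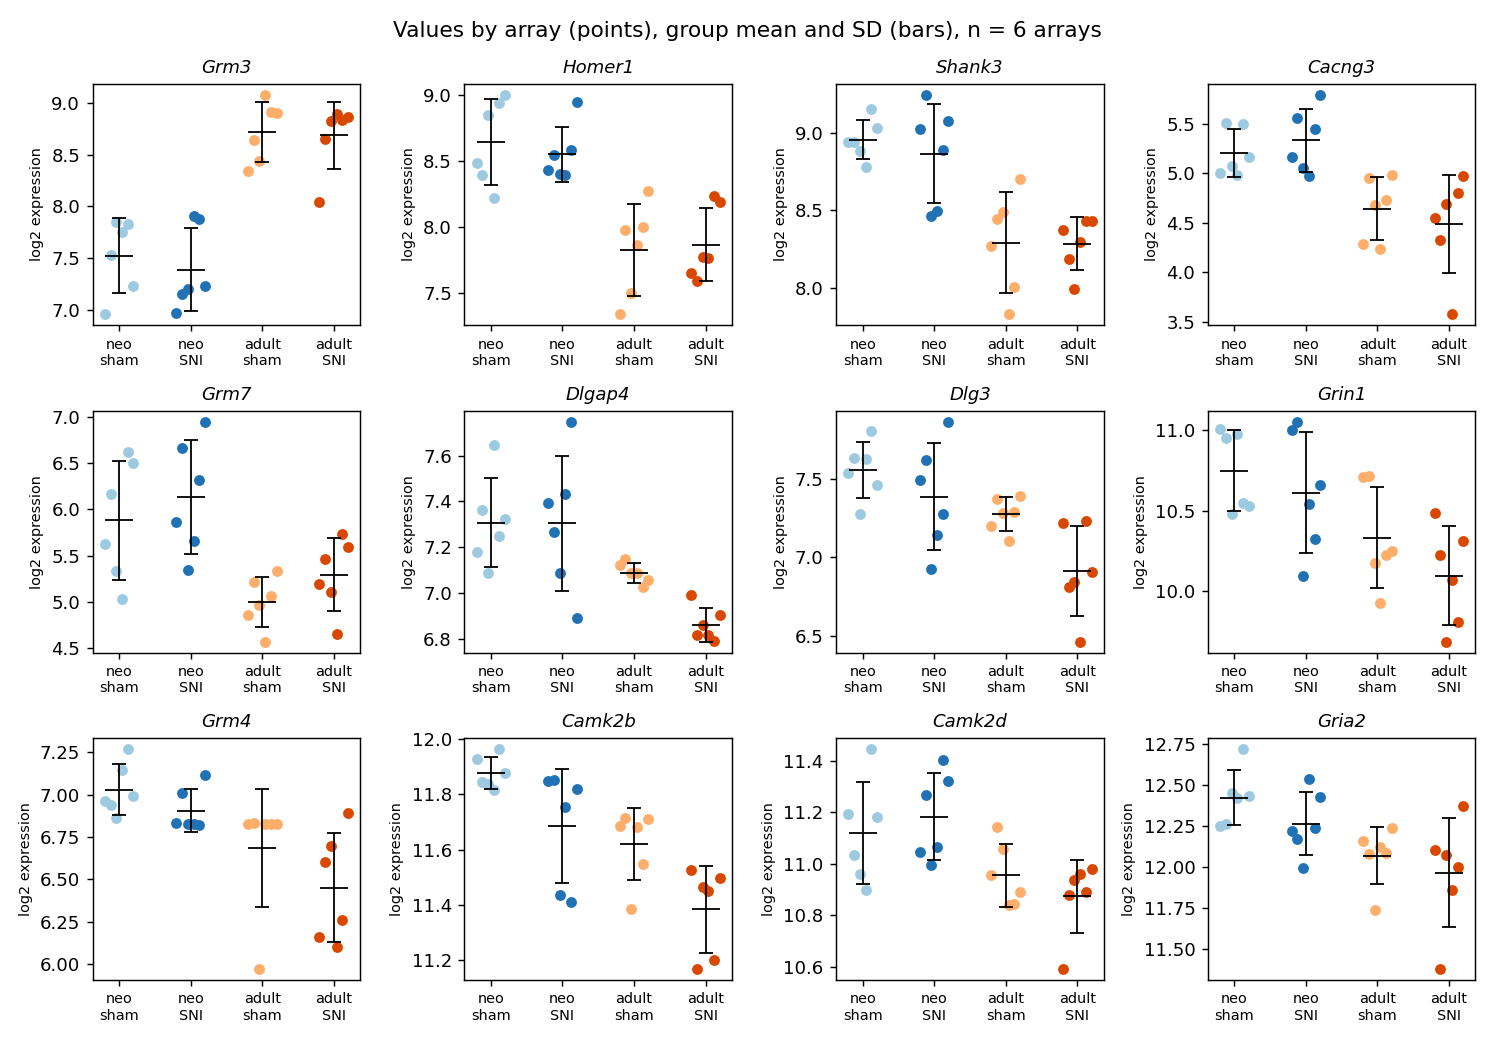
Log2 expression (vertical axes, each with its own range) of the 11 genes that passed an age comparison, and of Gria2, on each array of the 4 groups; points are arrays and bars the group mean and SD (n = 6). Grm3 is high in adults, from 8.05 to 9.08, and low in neonates, from 6.96 to 7.90, while the other genes lean the opposite way.

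Dlgap4 and the probe set that stood for Dlg3 passed in the SNI comparison and not in sham. Dlgap4 read 7.09, 7.29 and 7.65 log2 in neonate sham and 6.89, 7.33 and 7.75 in neonate SNI, beside the adult values given above. It was 1.36-fold lower in adults after SNI (-0.44, SE 0.106, limma adjusted p = 0.00398) and -0.22 in sham (adjusted p = 0.172). Dlg3 read 7.28, 7.58 and 7.81 in neonate sham and 6.92, 7.39 and 7.87 in neonate SNI, and was 1.39-fold lower in adults after SNI (-0.48, SE 0.138, adjusted p = 0.0156), against -0.28 in sham (adjusted p = 0.177). The difference between the sham and the SNI age effect equals the difference of injury effects tested above, and it passed for neither gene (adjusted p = 1 each). A second Dlg3 probe set gave the reverse order: it was lower in adults in sham (-0.62, SE 0.209, adjusted p = 0.0437) and did not pass after SNI (-0.51, adjusted p = 0.0877). The Dlg3 call after SNI was lost where the fit held only the 2 SNI groups (adjusted p = 0.0679).

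The other scaffold genes did not pass in either age comparison. In sham, Shank2 differed by -0.36 (SE 0.158, limma adjusted p = 0.134), Dlgap1 by -0.21 (adjusted p = 0.173), Dlg5 by -0.17, Dlgap3 by -0.09 and Dlg1 by -0.01. Dlg4 differed by 0.12 in sham and 0.20 after SNI (adjusted p = 0.658 and 0.411), the only scaffold gene above 0 in both comparisons.

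Cacng3, an auxiliary subunit that carries AMPA receptors to the membrane, was lower in adults. It read 4.23, 4.71 and 4.98 log2 in adult sham and 4.98, 5.12 and 5.51 in neonate sham, and 3.57, 4.62 and 4.97 in adult SNI and 4.97, 5.31 and 5.80 in neonate SNI. In sham the ranges of the ages did not overlap, by a narrow gap, and after SNI they met. The difference was 1.8-fold after SNI (-0.85, SE 0.195, limma adjusted p = 0.00273), and this call held under every alternative that gave a value. In sham it was 1.48-fold (-0.56, SE 0.195, adjusted p = 0.0495) and was lost in 14 of 26 alternatives, among them without any 1 of adult sham 1, 3, 4 or 5 or neonate sham 1, 2, 3, 5 or 6 (adjusted p up to 0.123). Cacng2 differed by -0.02 in sham and -0.20 after SNI.

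AMPA receptor genes themselves did not pass with age. Gria2 differed by -0.35 in sham (SE 0.128, limma adjusted p = 0.0613), where the arrays of the ages did not overlap, and by -0.30 after SNI (adjusted p = 0.102), where they did. Gria1 differed by -0.20 and -0.34 (adjusted p = 0.596 and 0.309), and Gria3 by 0.04 and -0.07.

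Of the NMDA receptor genes, Grin1 was 1.43-fold lower in adults after SNI (-0.52, SE 0.173, limma adjusted p = 0.0357), with overlapping arrays, and differed by -0.42 in sham (adjusted p = 0.107). A second Grin1 probe set was lower in both comparisons. The call of the first was lost in 10 of 27 alternatives, among them without adult SNI 3, 4 or 5 or neonate SNI 1, 2 or 6, with adjusted p up to 0.096. Grin2a differed by -0.29 in sham (adjusted p = 0.213) and -0.18 after SNI. Grin3a differed by -0.49 and -0.29, Grin2d by -0.13 and -0.28, and Grin2c by 0.09 and 0.20, and none of them passed. Grin2c, a subunit also found in glia, read 9.58, 9.65 and 10.11 log2 in adult sham and 9.51, 9.66 and 9.87 in neonate sham, with nearly equal medians.

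Kainate receptor genes did not pass. Grik5 differed by -0.45 in sham and -0.48 after SNI (SE 0.195 each, limma adjusted p = 0.122 and 0.0867), and Grik4 by 0.15 and 0.10 (adjusted p = 0.145 and 0.333). Both encode high-affinity subunits that join other kainate subunits, of which Grik1, Grik2 and Grik3 were below the filter level here.

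Camk2 genes differed little on the probe sets that stood for them. Camk2b was 1.23-fold lower in adults after SNI (-0.30, SE 0.0906, limma adjusted p = 0.0184) and -0.26 in sham (adjusted p = 0.053), where its arrays did not overlap. Camk2d, another kinase subunit, read 10.84, 10.92 and 11.14 log2 in adult sham and 10.90, 11.11 and 11.45 in neonate sham, a difference of -0.16 (adjusted p = 0.272). After SNI it read 10.59, 10.91 and 10.98 in adults and 10.99, 11.16 and 11.40 in neonates, without overlap (-0.31, SE 0.0963, adjusted p = 0.0238). The Camk2b call was lost without adult SNI 2 (adjusted p = 0.0525) and in a fit of the 2 SNI groups alone (0.0722). That of Camk2d was lost in 7 of 27 alternatives (limma adjusted p up to 0.176), among them without adult SNI 1 or neonate SNI 2, 5 or 6. Another Camk2b probe set had means of 9.31 log2 in adult sham and 9.75 in neonate sham, and 9.06 and 9.61 after SNI. Another Camk2d probe set had means of 6.73 in adult sham and 7.31 in neonate sham, and 7.00 and 7.44 after SNI. Camk2g and the kinase inhibitors Camk2n1 and Camk2n2 passed in neither comparison, at 0.21, 0.08 and -0.33 in sham.

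When the age difference was averaged over sham and SNI animals, an alternative added after the data were seen, 2 of the 31 genes were higher in adults and 13 lower, against 14.9% and 19.8% of all genes. Besides the 11 genes above, Gria2 (-0.33, limma adjusted p = 0.00677), Grik5 (-0.46, adjusted p = 0.011) and Dlgap1 (-0.19, adjusted p = 0.0439) were lower and Grik4 (0.13, adjusted p = 0.0469) was higher. The neonate values of Grik4 spanned only 5.60 to 5.62 log2. The averaged fit held no replicate block and treated same-numbered sham and SNI arrays of an age as independent. Those arrays deviated together (consensus correlation 0.4), so its adjusted p-values may be too small, which matters most for Dlgap1 and Grik4.

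Motor neuron markers went only partly with the replicate number. Over the 4 groups, arrays numbered 6 read 4.79 to 5.23 log2, those numbered 3 read 6.17 to 7.36 and those numbered 4 read 6.06 to 8.91. Those numbered 1 read 5.25 to 7.12, those numbered 2 read 4.83 to 8.17 and those numbered 5 read 4.55 to 6.84. In a fit with the 4 group means and the motor neuron list mean, also added after the data were seen, 6 of the 31 genes had a slope below 0 that passed the test and none a slope above 0, against 1.87% and 1.88% of all genes. The 6 were Cacng3 (-0.22 log2 per log2 unit, limma adjusted p = 0.00224), Grm7 (-0.28, adjusted p = 0.0119), Shank2 (-0.15, adjusted p = 0.0297), Shank3 (-0.13, adjusted p = 0.036), Grin3a (-0.23, adjusted p = 0.0384) and Dlg3 (-0.12, adjusted p = 0.0432). With the replicate number as a fixed block within age these calls were lost: 0 of the 6 passed, 5 were below 0, and Cacng3 read -0.11 (adjusted p = 0.806). With the number as a random block within age 1 passed (Cacng3, -0.19, adjusted p = 0.0205), and as a random block across ages 2 (Cacng3 and Shank2). The part of the motor neuron mean that goes with the number cannot be told apart from whatever else the number marks. Without a block, all 6 slopes were also below 0 among the 12 adult arrays and among the 12 neonate arrays, where none passed. Without a block and without the 2 arrays farthest from the median, adult sham 4 and adult SNI 2, all 6 were below 0 and 3 passed: Cacng3, Grm7 and Grin3a.

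**Figure D5:**
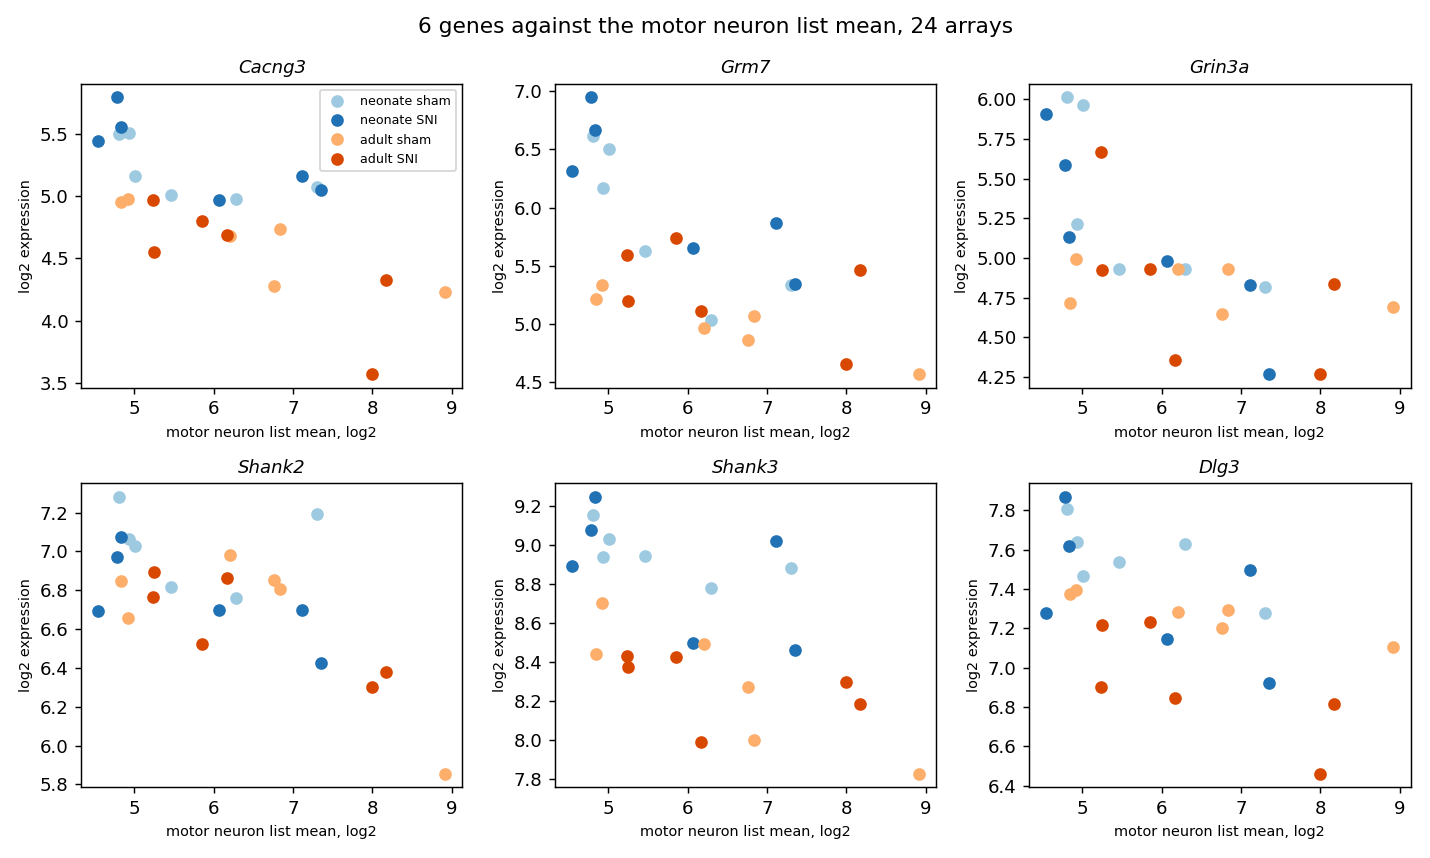
Log2 expression of 6 genes (vertical axes) against the mean log2 expression of 4 motor neuron markers (horizontal axes) on 24 arrays, coloured by group. Slopes fitted without a replicate block run from -0.28 for Grm7 to -0.12 for Dlg3; the 6 genes were picked by this slope, and with a fixed replicate block none passed.

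With the motor neuron mean as a covariate, 4 genes passed the sham age comparison and 10 the SNI one. Cacng3 dropped out in sham (-0.39, limma adjusted p = 0.0501) and Grin1 after SNI (adjusted p = 0.0584). Adult groups had the higher motor neuron medians, 6.48 in adult sham and 5.24 in neonate sham, and 6.01 and 5.45 after SNI. The ranges of the ages overlapped widely under both treatments, and none of the 4 markers passed either age comparison. The injury counts remained 0 with this covariate.

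The mean over the 31 genes moved little between arrays. Its lowest, median and highest values were 7.55, 7.72 and 7.77 log2 in adult sham, 7.51, 7.55 and 7.79 in adult SNI, 7.76, 7.88 and 8.02 in neonate sham and 7.56, 7.82 and 7.97 in neonate SNI. Neonate sham arrays were the highest group and overlapped adult sham at 1 edge.

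Other genes of the glutamate synapse were described in the same way. Of a list of 91 transporters, vesicle proteins, kinases and adaptors outside the families above, 72 were measured and 59 tested. None passed after injury at either age. In sham 4 were higher and 13 lower in adults (6.78% and 22% of the 59, against 7.86% and 8.59% of all genes; median -0.16). After SNI 2 were higher and 19 lower (3.39% and 32.2%, against 9.66% and 11.9%; median -0.21). In sham the largest falls were those of Fyn, a kinase that phosphorylates NMDA receptors (-0.93, limma adjusted p = 7.48e-06), Slc1a1, a neuronal glutamate transporter (-0.73, adjusted p = 4.10e-06), and Cnih2, an AMPA receptor auxiliary protein (-0.69, adjusted p = 0.0057). The largest rises were those of Ppp1r1b, a phosphatase inhibitor (2.81, adjusted p = 1.46e-06), Itpr1, a calcium release channel (0.59, adjusted p = 0.00718), and Glul, the glutamine synthetase of astrocytes (0.49, adjusted p = 0.00687).

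After SNI the largest falls with age on that list were those of Fyn (-1.04), Nrgn, a calmodulin-binding protein (-0.94, limma adjusted p = 0.00272), and Pick1, which binds Gria2 (-0.85, adjusted p = 0.0205). Ppp1r1b (3.01) and Itpr1 (0.53, adjusted p = 0.0125) were the 2 that were higher. Slc17a6, the vesicular glutamate transporter of most dorsal horn excitatory neurons, was lower in adults by -0.27 in sham (adjusted p = 0.0221) and -0.24 after SNI (adjusted p = 0.0375). Of the glial transporters, Slc1a3 was lower in sham (-0.34, adjusted p = 0.0393), and Slc1a2 did not pass (0.06 in sham). The activity-regulated gene Arc lay below the filter level.

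The sequences just upstream of the genes that were lower in adults in both comparisons are shown. These genes were picked by those calls alone, and whether they vary together or share regulation was not tested. A window of 250 bases before the start site was available for 36 of the 55 genes, from RefSeq on build GRCr8, as 38 entries. Capitals mark the GC box (GGGCGG or its reverse complement CCGCCC), the site of Sp factors; each window is on the plus strand and ends just before the annotated start. Cacng3 lies at chr1:186632312-186632561, Grm7 at chr4:145286476-145286725, Homer1 at chr2:26278762-26279011 and Shank3 at chr7:122448073-122448322.
Cacng3: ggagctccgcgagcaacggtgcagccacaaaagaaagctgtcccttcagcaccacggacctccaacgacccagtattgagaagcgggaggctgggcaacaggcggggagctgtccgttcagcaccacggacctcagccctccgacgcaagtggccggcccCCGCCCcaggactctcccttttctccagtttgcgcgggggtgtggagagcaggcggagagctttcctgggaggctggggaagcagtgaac
Grm7: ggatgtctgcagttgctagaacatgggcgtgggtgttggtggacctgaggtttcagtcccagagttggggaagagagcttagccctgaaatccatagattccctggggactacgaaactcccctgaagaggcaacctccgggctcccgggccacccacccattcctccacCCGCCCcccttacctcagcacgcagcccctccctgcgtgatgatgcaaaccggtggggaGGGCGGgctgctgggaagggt
Homer1: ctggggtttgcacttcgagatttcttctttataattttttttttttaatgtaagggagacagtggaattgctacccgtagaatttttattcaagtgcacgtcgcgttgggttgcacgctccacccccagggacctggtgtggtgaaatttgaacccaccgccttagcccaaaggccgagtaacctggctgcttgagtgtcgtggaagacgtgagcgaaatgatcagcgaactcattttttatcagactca
Shank3: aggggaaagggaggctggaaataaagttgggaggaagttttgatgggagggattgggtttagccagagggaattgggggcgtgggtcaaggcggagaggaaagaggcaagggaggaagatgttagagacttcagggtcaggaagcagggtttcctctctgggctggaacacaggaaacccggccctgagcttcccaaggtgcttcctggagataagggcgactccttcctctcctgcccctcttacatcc
The 4 windows share no pattern of GC boxes: Cacng3 holds 1, Grm7 holds 2, and Homer1 and Shank3 hold none. Over the 38 entries, 12 held a GC box (31.6%), against 30.5% of 33465 promoter windows of the same length. The core of the cyclic AMP response element (TGACG, both strands) was in 4 (10.5% against 18.2%), the full element TGACGTCA, which contains it, in 0 (0% against 1.59%), the E-box CANNTG in 27 (71.1% against 65.5%) and TATAAA in 3 (7.89% against 12.9%). The median GC content was 59.6% against 51.2%. A match in these windows is a description of letters.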

How the data were processed

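Total RNA from 24 dorsal horn samples was extracted with Trizol, and biotinylated cRNA was hybridised to Affymetrix Rat Expression 230A arrays. The deposited values are log2 expression per probe set, made by the authors with GCRMA (submitters' processing notes), of unstated version. GCRMA can place dim arrays of a probe set at 1 shared low value, where differences are understated. Of 15923 probe sets, 57 controls were removed; 12783 carried 1 symbol in the platform annotation, 312 several and 2771 none. No gene coordinates of the array are given, as no source used here gives its build.

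A linear model with 4 group means was fitted to 9638 probe sets in limma 3.58.1 (R 4.3.3) with 20 residual and 3.81 prior degrees of freedom. Two-sided p-values were adjusted by the Benjamini-Hochberg method (threshold 0.05); the number of arrays limits the precision. The code was tested on simulated data. Figures used matplotlib 3.10.9 (Python 3.11.15).

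The members and gene lists were chosen with earlier results of these data known. Index genes and genes passing an injury or sham age comparison are given by group, and list genes by the 3 largest rises and falls. Genes that passed only after SNI, or with p under 0.05, were chosen for full values after their values were seen.

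Replicate numbers were used to check pairing. Sham and SNI arrays with the same number deviated together, with correlations from 0.10 to 0.559 in adults and 0.237 to 0.61 in neonates. The number was therefore used as a block within age in an alternative. The main fit, from which the differences, intervals and adjusted p-values above come unless stated, held no block. Same-numbered arrays of different ages also deviated together (24 of 24 correlations above 0, mean 0.321, against -0.0621 for different numbers); what a number marks is not in the labels. Alternatives covered the filter, normalization, probe set choice, variance model, replicate block and each array left out, and, added after seeing the data, a motor neuron covariate, the averaged age difference and a replicate block across ages.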

Additional observations from a re-analysis of the deposited data

Results flagged for a closer look

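Of 124 sets of 6 arrays (31 genes in 4 groups) checked for an array standing apart from the rest of its group by Dixon's criterion, 11 held one. For normally distributed values chance gives about 1 in 20. In adult sham, however, most other arrays shared 1 value for Dlgap3 (4.2395 log2) and for Grm4 (6.8273). Such ties widen the relative gap, so the count of 11 cannot be judged against that rate. Array 3 of adult sham was the lowest for Camk2n1 (10.2 log2, next 11.47), Camk2n2 (4.149, next 4.76), Gria2 (11.74, next 12.08) and Grm4 (5.972, next 6.827). Without it, the adult injury comparison still had 0 genes past the test, with 24 of 31 differences below 0, a median of -0.12 and a smallest limma adjusted p of 0.143. Array 4 of adult sham, the array with the highest motor neuron markers, was the lowest for Shank2 (5.855, next 6.657). Array 1 of adult sham was the highest for Dlgap3 (4.933, next 4.24).

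In adult SNI, array 1 was the lowest for Camk2d (10.59, next 10.88) and Grm3 (8.048, next 8.655), and array 5 for Dlg1 (9.259, next 9.419). Grm3 passed both age comparisons without any 1 array, whereas Camk2d did not pass the SNI age comparison without array 1 of adult SNI (-0.25, limma adjusted p = 0.066). In neonates, sham array 3 was the lowest for Grik5 (6.376, next 7.005) and SNI array 6 the highest for Homer1 (8.946, next 8.582).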

How the results depend on the processing

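The counts of 0 genes after injury in adults, in neonates and for the difference between ages stood under every alternative run, each array left out and the replicate block included. The count of 5 genes in the sham age comparison became 8 with the mean of a gene's probe sets, 3 with no filter, 3 relative to the pan-neuronal list, and 15 for the age difference averaged over sham and SNI; it ranged from 3 to 5 with 1 array left out, with 3 without adult sham 1 or 4 or neonate sham 2, 5 or 6. The count of 11 after SNI became 5 relative to the pan-neuronal list and ranged from 7 to 12 with 1 array left out, with 7 without neonate SNI 2 or 6. With the replicate block the counts were 0, 0, 0, 5 and 10, and Grm4 was the only call lost. With the replicate number as a block across ages they were 0, 0, 0, 9 and 14, and no call was lost. No difference of a gene that had passed changed sign. The cause of these changes was not tested. With 6 arrays a group the median 95% interval reached 0.32 log2 units on each side, and the 24 genes under the filter level were tested only with a looser filter (13 at the 20th percentile) or none (all 24), where 0 passed in any comparison, with a smallest limma adjusted p of 0.0569.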
